A study of Homo sapiens with 12 samples.

Results

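The genes of DNA replication and nucleotide supply were followed in mantle cell lymphoma (MCL) cells treated with ironomycin, a derivative of salinomycin that sequesters iron in lysosomes, and with ibrutinib, an inhibitor of BTK. The list holds 49 genes chosen by their role in S phase, with no measured value in the rule. Earlier results of these data were known when it was chosen. Of the 49 genes, 48 were found in the deposited table of 63677 genes and all 48 passed the filter on low counts. The transcript level of UHRF1 was not analysed here. The 48 genes fall into origin licensing (11 genes), activation of the helicase (6), polymerases and primase (9), the sliding clamp with its loader and the single-strand binding proteins (9), processing of Okazaki fragments (3), nucleotide supply (6) and E2F factors with S-phase regulators (4).

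RNA-seq was performed on JEKO1, JVM2 and MAVER1, 3 established cell lines of MCL that were left untreated (Ctrl) or exposed for 48 h to ironomycin (Irono), ibrutinib (Ibru) or both drugs (Irono+Ibru). Ironomycin was given at 50 nM to JEKO1 and at 250 nM to JVM2 and MAVER1. Ibrutinib was given at 0.5 μM to JEKO1, 1.5 μM to JVM2 and 6.25 μM to MAVER1, so the dose and the line cannot be told apart. Each line gave 1 library per treatment (12 in all), and the 3 lines served as the replicates of a treatment (n = 3). The spread is thus that of a treatment's change from line to line and not that between cultures of a line.

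The libraries held 35448523 to 38630809 counted reads, and the 48 genes held 399 to 103363 reads in a library, so counting error was small beside the spread between lines. The B-cell markers MS4A1, CD79A, CD79B and PAX5 were present in all 12 libraries, and their 4 levels summed to 1312 to 1809 CPM (reads of a gene scaled to a common library size) in Ctrl, 1081 to 1361 CPM in Irono, 1415 to 1954 CPM in Ibru and 1164 to 1371 CPM in Irono+Ibru, a difference whose part in the results was not tested. Of the MCL markers, CCND1 ran from 216 to 4826 CPM, and SOX11 had 0 reads in the 4 libraries of JVM2. Summed markers of T cells, myeloid cells and NK cells stayed at or under 6.62 CPM in every library, and the erythroid gene HBB was at 0 in all 12. The 3 stromal and epithelial markers summed to 2.99 to 47.0 CPM, of which COL1A1 held up to 32.9 CPM, highest in MAVER1 with both drugs, and COL1A2 was at 0 in 8 libraries.

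Before a cell copies its DNA, the origin recognition complex, CDC6 and CDT1 load the MCM2-7 helicase onto origins, and CDC45 and the GINS complex then switch it on. Primase and the polymerases copy the strands behind it while PCNA, a ring loaded by replication factor C, holds the polymerases on the template. The building blocks come from ribonucleotide reductase, in which RRM1 carries the catalytic site and either RRM2 or its stress-inducible relative RRM2B carries an iron centre that is needed for activity, so iron and DNA synthesis meet in this enzyme. The transcripts of most of these genes are under the control of E2F factors and peak around S phase. Only transcripts were measured here, not the iron centre or the activity of the enzyme.

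With both drugs, transcripts of the replication machinery fell together. Against Ctrl, 32 of the 48 genes fell and none rose at an adjusted p-value under 0.05 (edgeR's quasi-likelihood test, Benjamini-Hochberg adjustment over the 18674 genes tested), while 14.0% of all tested genes fell and 14.2% rose. Among genes whose mean reached 1 log2 CPM, which holds for all 48, 19.4% fell. The median log2 fold change of the 48 genes was -0.47 against 0.05 for all tested genes, and 47 of the 48 values lay below 0. The falls were moderate in size: the steepest was that of TK1, to 0.57 of its control level, and none reached a fold change of 2. In bulk RNA, fewer cells in S phase and less RNA per cell cannot be told apart.

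The call rests on the lines and on the pooled spread. No member was called without JEKO1 or without MAVER1, 35 were called without JVM2, all lower (17.9% of the genes tested in that fit were called lower), and none was called when the fit held only the 6 libraries of the compared groups or had no term for the cell line. Without JEKO1 the median of the 48 genes was -0.34 and without MAVER1 -0.45, and over all tested genes 37 and 22 genes were called in these fits against 5268 with 3 lines.

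**Figure D1:**
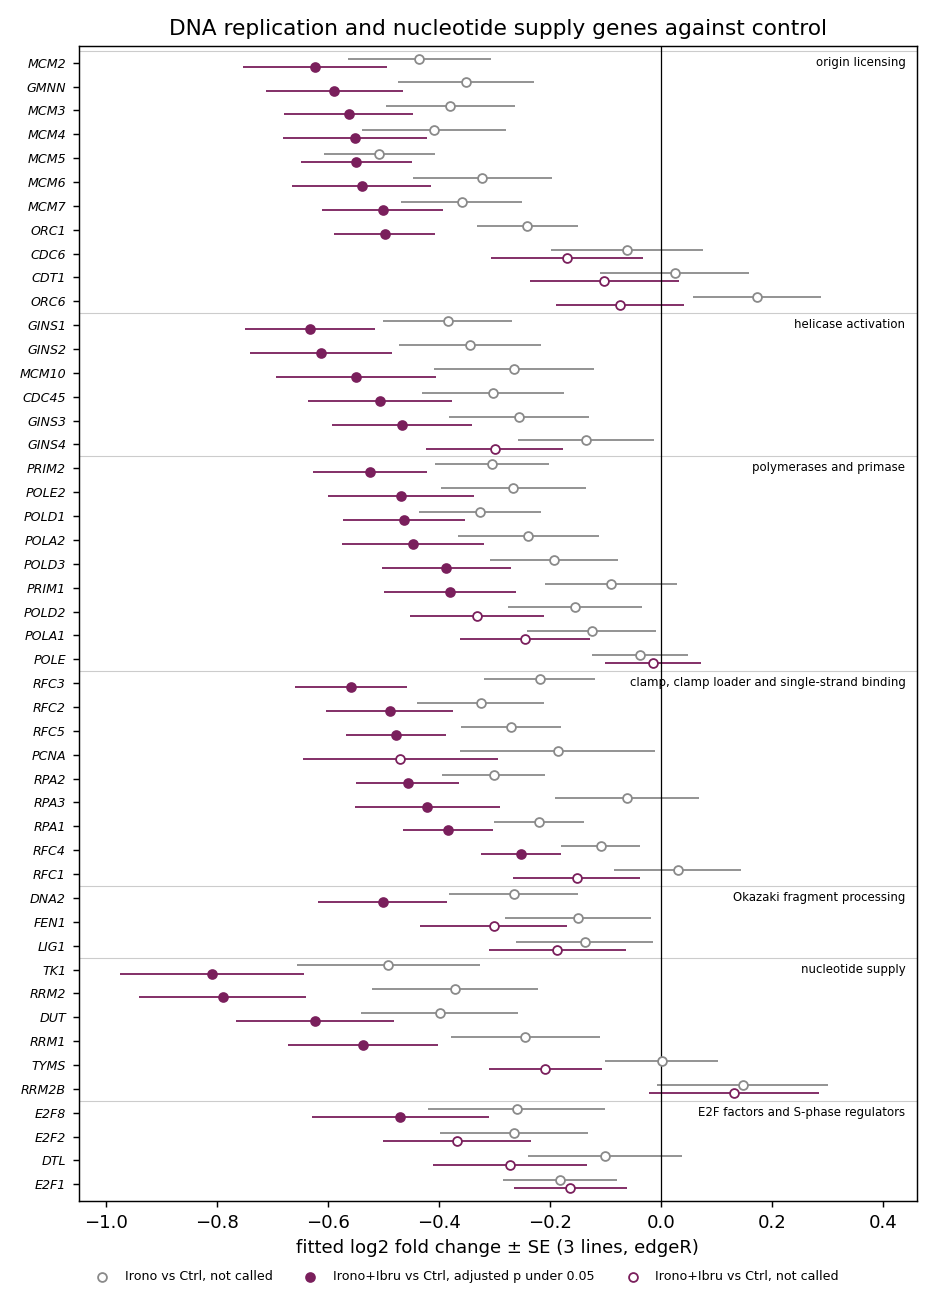
Fitted log2 fold change of each of the 48 genes against Ctrl, with its standard error as a horizontal bar, for ironomycin alone (grey) and for both drugs (purple). Filled points had an adjusted p-value under 0.05 in edgeR and open points did not. With both drugs 47 of the 48 points lie left of 0, from -0.81 for TK1 to 0.13 for RRM2B.

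In origin licensing, 8 of 11 genes fell with both drugs. All 6 subunits of the MCM2-7 helicase were among them, from MCM2 (-0.62) to MCM7 (-0.50), together with GMNN (-0.59), the inhibitor of CDT1, and ORC1 (-0.50), the largest subunit of the origin recognition complex. The loaders CDC6 (-0.17) and CDT1 (-0.10) and the subunit ORC6 (-0.07) did not pass the test. In helicase activation 5 of 6 genes fell, GINS1 (-0.63), GINS2 (-0.61), MCM10 (-0.55), CDC45 (-0.51) and GINS3 (-0.47), and GINS4 (-0.30, adjusted p = 0.0901 in edgeR) did not pass.

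Of the 9 polymerase and primase genes 6 fell, led by PRIM2 (-0.53), the large subunit of primase. The polymerase ε genes parted: POLE2 (-0.47), an accessory subunit, fell, whereas POLE, the catalytic subunit, stood at -0.02 (standard error 0.09, adjusted p = 0.913 in edgeR). Of the clamp group 7 of 9 genes fell, among them RFC3 (-0.56), RFC2 (-0.49) and all 3 genes of the single-strand binding protein, RPA2 (-0.46), RPA3 (-0.42) and RPA1 (-0.38). The clamp itself, PCNA, had -0.47 with a standard error of 0.18 and did not pass (adjusted p = 0.0685 in edgeR). It passed without the filter on low counts (0.0414), without JVM2 (0.0164) and in DESeq2 (0.0246). In Okazaki fragment processing DNA2 fell (-0.50), and FEN1 (-0.30) and LIG1 (-0.19) did not pass. Of the regulators only E2F8 (-0.47), a repressor of the E2F family, was called, and E2F2 (-0.37), DTL (-0.27) and E2F1 (-0.16) were not.

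Nucleotide supply held the steepest falls of the list. TK1, the thymidine kinase of the salvage route, fell by 0.81 in log2 units (standard error 0.17, adjusted p = 0.00721 in edgeR). Its level was 251, 245 and 270 CPM in Ctrl (JEKO1, JVM2 and MAVER1 in this order, as below), 152, 211 and 190 CPM in Irono, 247, 245 and 264 CPM in Ibru, and 100.4, 202 and 147 CPM in Irono+Ibru. The Irono+Ibru libraries were all below the Ctrl and the Ibru libraries, without overlap, and JEKO1 was the lowest.

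RRM2 followed, with a fall of 0.79 (standard error 0.15, adjusted p = 0.00562 in edgeR). It stood at 189, 808 and 236 CPM in Ctrl, 130, 587 and 218 CPM in Irono, 206, 857 and 238 CPM in Ibru, and 78.8, 539 and 159 CPM in Irono+Ibru. JVM2 held the highest level in every treatment, so the groups overlapped between lines, but within each line Irono+Ibru was the lowest of the 4 libraries.

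RRM1, the partner of RRM2, fell by 0.54 (standard error 0.13, adjusted p = 0.0154 in edgeR). Its levels were 233, 183 and 212 CPM in Ctrl, 172, 163 and 196 CPM in Irono, 223, 191 and 219.8 CPM in Ibru, and 118, 166 and 148 CPM in Irono+Ibru. The Irono+Ibru libraries lay below all Ctrl libraries, and in JVM2 the value stood slightly above that with ironomycin alone.

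DUT, the dUTPase that keeps uracil out of DNA, fell by 0.62 (standard error 0.14, adjusted p = 0.0105 in edgeR). It was at 177, 243 and 171 CPM in Ctrl, 107, 209 and 143 CPM in Irono, 196, 252 and 175 CPM in Ibru, and 90.0, 200.4 and 109.8 CPM in Irono+Ibru. The level in JVM2 with both drugs was above the Ctrl levels of the other lines, so the groups overlapped. TYMS, which makes thymidylate, had -0.21 (standard error 0.10) and did not pass the test. Near-identical pseudogene copies of DUT, RRM2 and PCNA exist in the genome, and how the counting shared reads among copies is not given in the sources used here.

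**Figure D2:**
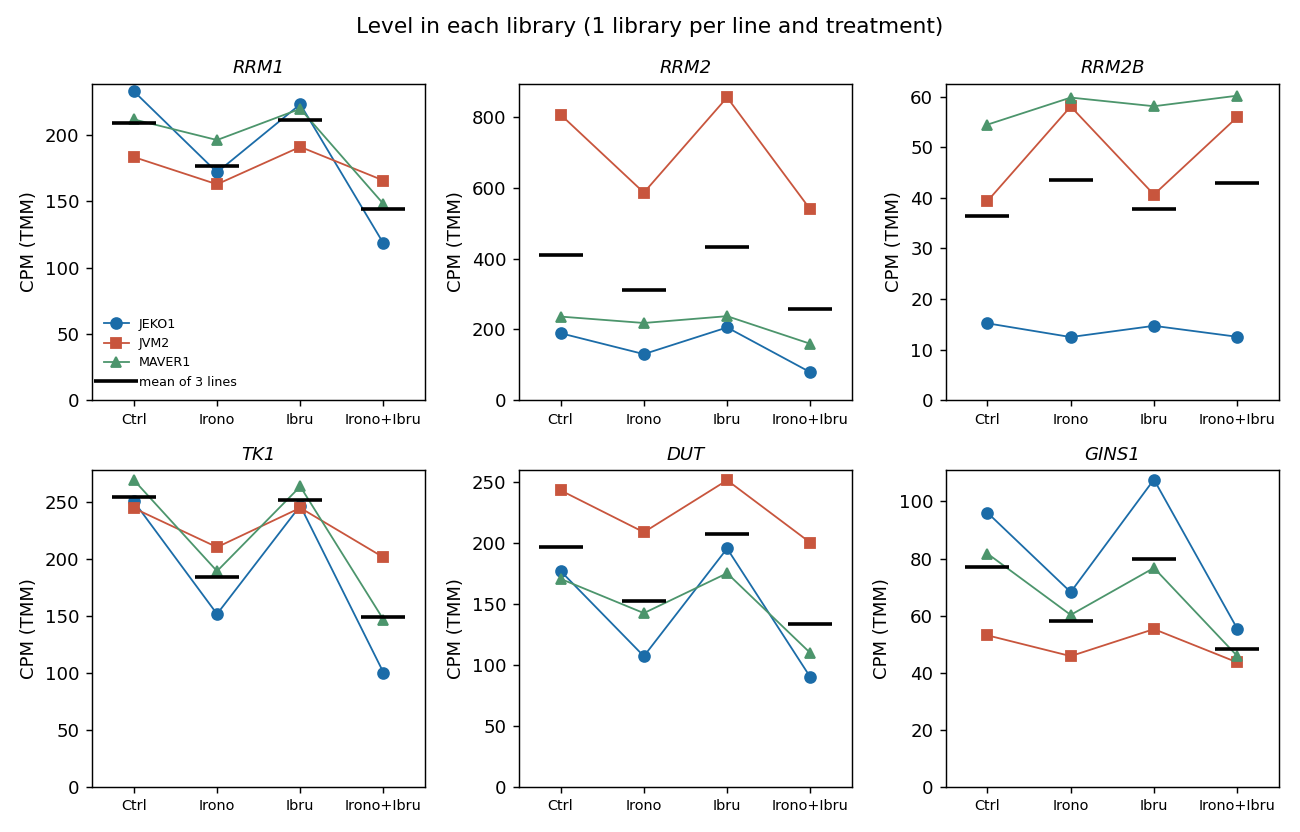
Level in CPM (scaled by TMM factors, y axis from 0) of 6 genes in each of the 12 libraries by treatment (x axis), with 1 symbol and line per cell line and a black bar at the mean of 3 lines. TK1 in Irono+Ibru lies between 100.4 and 202 CPM, below all Ctrl libraries, and RRM2B in JVM2 is at 58.0 CPM in Irono and 55.9 CPM in Irono+Ibru against 39.3 CPM in Ctrl.

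RRM2B was the only member whose fitted log2 fold change with both drugs lay above 0. Its levels were 15.2, 39.3 and 54.4 CPM in Ctrl, 12.5, 58.0 and 59.8 CPM in Irono, 14.7, 40.6 and 58.1 CPM in Ibru, and 12.5, 55.9 and 60.2 CPM in Irono+Ibru. JVM2 was higher in both treatments with ironomycin than in those without, MAVER1 differed little, and JEKO1 was lower. Over the 3 lines the log2 fold change with both drugs was 0.13 (standard error 0.15, adjusted p = 0.552 in edgeR), and it was -0.09 without JVM2, the line that set its sign.

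Per kilobase of exon, RRM2 exceeded RRM2B in every library. The ratio of RRM2 to RRM2B was 13.0, 21.4 and 4.52 in Ctrl, 10.9, 10.5 and 3.80 in Irono, 14.6, 22.0 and 4.26 in Ibru, and 6.56, 10.1 and 2.76 in Irono+Ibru. It was lower with both drugs than in Ctrl in 3 of 3 lines. In JVM2 the drop was already as large with ironomycin alone, whereas in JEKO1 and MAVER1 the larger step came with the addition of ibrutinib. No test was made on this ratio.

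Beyond nucleotide supply, GINS1, a subunit of the GINS complex, fell by 0.63 with both drugs (standard error 0.12, adjusted p = 0.00517 in edgeR). It had 96.1, 53.1 and 81.7 CPM in Ctrl, 68.2, 45.8 and 60.2 CPM in Irono, 108, 55.3 and 76.7 CPM in Ibru, and 55.5, 43.6 and 45.9 CPM in Irono+Ibru. Its levels with both drugs were close to each other in the 3 lines, although Ctrl ranged widely, and the JEKO1 level with both drugs overlapped the Ctrl level of JVM2.

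MCM2, a subunit of the replicative helicase, fell by 0.62 (standard error 0.13, adjusted p = 0.00755 in edgeR). It had 839.8, 1022 and 741 CPM in Ctrl, 594, 845 and 516 CPM in Irono, 906, 1098 and 727 CPM in Ibru, and 448, 881 and 432 CPM in Irono+Ibru. JEKO1 and MAVER1 had a stepwise lower level from Ctrl to ironomycin to both drugs, whereas JVM2 was not lower with both drugs than with ironomycin.

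Besides RRM2B, the members with the highest values with both drugs were POLE and ORC6, both close to 0. POLE had 229, 208 and 302 CPM in Ctrl, 217, 198 and 309 CPM in Irono, 239, 234 and 311 CPM in Ibru, and 230.3, 227 and 266 CPM in Irono+Ibru. ORC6 had 91.4, 45.0 and 78.7 CPM in Ctrl, 112, 46.4 and 88.4 CPM in Irono, 94.9, 50.7 and 75.4 CPM in Ibru, and 98.0, 47.4 and 59.1 CPM in Irono+Ibru. For both, the groups overlapped and the direction differed between lines, with MAVER1 lower and JEKO1 and JVM2 slightly higher in Irono+Ibru than in Ctrl. With library totals in place of TMM scaling, the fitted values of POLE (0.11), ORC6 (0.05) and CDT1 (0.02) had the opposite sign, and the median of all tested genes was 0.18.

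The promoters of the listed genes, whether or not they fell, were read for words tied to S-phase transcription. Windows from 250 bases before to 50 bases after the start site were available from RefSeq (GRCh38.p14) for 40 of the 49 listed genes. UHRF1, whose transcript level was not analysed, is among the 40 and has both kinds of word. An E2F word (TTTCCCGC, TTTCGCGC, TTTGCCGC or TTTGGCGC on either strand) was present in 23 of the 40 genes (57.5%), against 3.99% of 27305 genes with a window and 3.31% of 35116 windows. A CCAAT box, the 5-letter word bound by NF-Y, was present in 25 of 40 genes (62.5%), against 39.7% of all genes and 34.6% of windows. The stretches upstream of the start site are shown for 5 members. They are 3 of ribonucleotide and thymidine supply, DUT as a carrier of 2 E2F words and PCNA as a carrier of both kinds. E2F words and CCAAT boxes are in capitals (ATTGG is CCAAT on the other strand).
RRM2: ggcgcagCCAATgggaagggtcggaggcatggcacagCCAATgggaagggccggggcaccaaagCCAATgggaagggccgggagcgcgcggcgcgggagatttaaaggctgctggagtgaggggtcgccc
TK1: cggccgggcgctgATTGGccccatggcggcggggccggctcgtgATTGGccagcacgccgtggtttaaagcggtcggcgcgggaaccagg
DUT: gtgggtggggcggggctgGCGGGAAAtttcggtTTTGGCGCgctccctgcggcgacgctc
PCNA: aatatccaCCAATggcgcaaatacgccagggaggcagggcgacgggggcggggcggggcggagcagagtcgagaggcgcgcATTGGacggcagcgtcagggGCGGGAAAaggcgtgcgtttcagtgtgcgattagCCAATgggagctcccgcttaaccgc
RRM1: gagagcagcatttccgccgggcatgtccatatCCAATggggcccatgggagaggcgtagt
The stretches end at the base before the start site and lie on GRCh38.p14 at chr2:10122609-10122738 (plus strand) for RRM2, chr17:78187053-78187142 (minus) for TK1, chr15:48332137-48332196 (plus) for DUT, chr20:5126623-5126782 (minus) for PCNA and chr11:4094625-4094684 (plus) for RRM1.
RRM2, with 3 CCAAT boxes, and TK1, with 2, had no E2F word in the whole window, and they were the members with the steepest falls, while DUT had 2 E2F words and no CCAAT box. With both drugs, the 22 tested members with an E2F word had a median log2 fold change of -0.47 (12 called) and the 17 without had -0.48 (13 called). With a CCAAT box the median was -0.49 in 24 members (15 called) and without it -0.46 in 15 members (10 called). The medians with and without either word were close to each other, and the matches are letters in a window and not measured binding.

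Ironomycin alone gave lower values of the same kind that did not pass the test. No member was called by edgeR (0.171% of all tested genes were called lower), 21 of 48 had an unadjusted p-value under 0.05 (22.5% of all tested genes did), and DESeq2 called 16, all lower (9.32% of the genes to which it gave an adjusted p-value were called lower). The median log2 fold change was -0.25 against 0.03 for all tested genes, with 43 members below 0. The helicase subunit MCM5 was the lowest at -0.51 (standard error 0.10, adjusted p = 0.0534 in edgeR), followed by TK1 (-0.49), MCM2 (-0.44), MCM4 (-0.41) and DUT (-0.40). MCM5, whose values are added here because it was the lowest, stood at 371, 563 and 708 CPM in Ctrl, 259.6, 423 and 470.1 CPM in Irono, 419, 625 and 673 CPM in Ibru, and 239.8, 465 and 421 CPM in Irono+Ibru. It was lower with ironomycin than without in every line, and in JVM2 its level was not lower with both drugs than with ironomycin. The highest values were those of ORC6 (0.17) and RRM2B (0.15). Without JVM2, 8 members were called, all lower, as were 5.02% of the genes tested in that fit.

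Ibrutinib alone left the list near its control level. Neither edgeR nor DESeq2 called any member (0% of all tested genes were called lower by edgeR). No member had an unadjusted p-value under 0.05, against 680 of all tested genes (3.64%). The median log2 fold change was 0.05 against -0.0007 for all tested genes. GINS3, a subunit of the GINS complex, was the highest at 0.27 (standard error 0.13, not called by edgeR), and RPA1 the lowest at -0.06. Of the 48 members, 22 were above Ctrl in all 3 lines, as were 14.4% of all tested genes, and 0 were below Ctrl in all 3.

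The combination was next compared with each drug alone, and these comparisons share libraries with those against Ctrl and are not independent of them. Against ibrutinib, 35 of 48 members fell and none rose (edgeR; 11.5% of all tested genes fell, and 16.2% of those whose mean reached 1 log2 CPM), with a median of -0.50. RRM2 (-0.86), TK1 (-0.79), GINS3 (-0.74), DUT (-0.70) and GINS2 (-0.70) were lowest. The 13 members that were not called were DTL, FEN1, POLD2, LIG1, POLA1, TYMS, CDC6, E2F1, CDT1, ORC6, RFC1, POLE and RRM2B. No member was called without JEKO1, without MAVER1, without a term for the line or with only the libraries of the 2 groups.

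Against ironomycin, no member was called by edgeR or DESeq2 (0% of all tested genes were called lower by edgeR), although 46 of 48 values lay below 0 (47.8% of all tested genes did) and 6 had an unadjusted p-value under 0.05. That share, 12.5%, was near the 10.5% of all tested genes. The median was -0.20 against 0.01 for all tested genes, with RRM2 lowest at -0.42 (standard error 0.15, adjusted p = 0.431 in edgeR). In single lines the median was -0.30, 0.00 and -0.31 in JEKO1, JVM2 and MAVER1, so that the addition of ibrutinib went with lower levels in 2 of the 3 lines.

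Whether the change with both drugs equalled the ironomycin and ibrutinib changes added together was tested in the same fit. No member departed at an adjusted p-value under 0.05 with edgeR or DESeq2 (0% of all tested genes were called lower). An unadjusted p-value under 0.05 was seen for 3 members (6.25%), RRM2, GINS3 and RFC3, against 367 of all tested genes (1.97%). All 48 values lay below 0, against 48.3% of all tested genes, with a median of -0.24. RRM2 was lowest at -0.49 (standard error 0.21, not called by edgeR). Genes of 1 pathway share their libraries, so these signs are not 48 separate observations.

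The ratios to Ctrl were of different size in the 3 lines. With 1 library per arm no test can be made within a line, and log2 ratios of CPM are given as values, with 1.5-fold as the mark. With both drugs the median ratio was -0.69, -0.19 and -0.44 in JEKO1, JVM2 and MAVER1. At least 1.5-fold lower levels were seen for 33 members in JEKO1, 0 in JVM2 and 13 in MAVER1, while 14.1%, 6.83% and 14.3% of all tested genes passed this mark. No member was 1.5-fold higher in any line. JEKO1 had the lowest ratio of the 3 lines for 35 members, and for 31.1% of all tested genes, and 38 members were below Ctrl in all 3 lines, as were 23.7% of all tested genes. In JEKO1 the lowest ratios were those of TK1 (-1.32), RRM2 (-1.26), PCNA (-1.06), MCM10 (-1.04) and GMNN (-1.02). In MAVER1 they were TK1 (-0.88), GINS1 (-0.83) and MCM2 (-0.78), and in JVM2 RRM2 (-0.58) and E2F2 (-0.51).

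**Figure D3:**
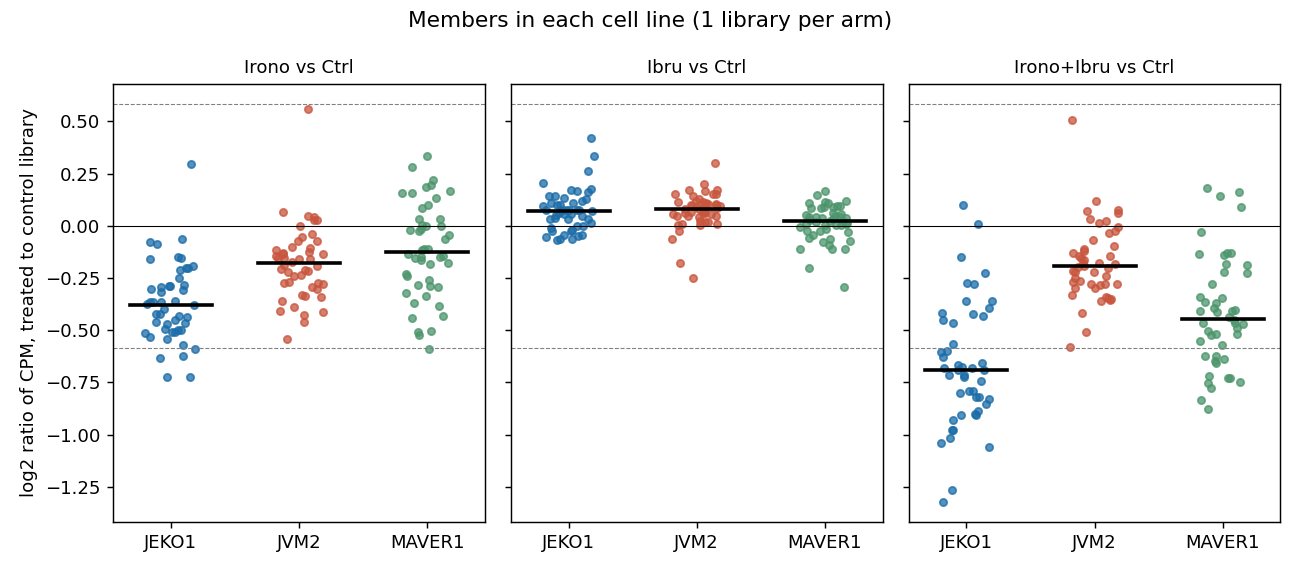
Log2 ratio of CPM, treated to Ctrl library (y axis), of the 48 genes in each cell line for ironomycin, ibrutinib and both drugs. Each point is a gene, black bars are medians and dashed lines mark 1.5-fold. With both drugs the median is -0.69, -0.19 and -0.44 in JEKO1, JVM2 and MAVER1.

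With ironomycin alone the medians were -0.38 in JEKO1, -0.18 in JVM2 and -0.13 in MAVER1. The 1.5-fold mark was passed downward by 5 members in JEKO1 (DUT, TK1, MCM4, E2F8 and MCM6), 0 in JVM2 and 1 in MAVER1 (MCM5), against 6.38%, 5.67% and 10.6% of all tested genes. In JVM2 and MAVER1 the share of members was below that of all tested genes. With ibrutinib alone the medians were 0.07, 0.08 and 0.02, and no member passed the mark, against 6.92%, 6.72% and 5.68% of all tested genes. When both drugs were set against ironomycin, 3 members passed it in JEKO1 (RRM2, MCM10 and TK1) and 0 in JVM2 and MAVER1, against 6.33%, 4.51% and 5.33% of all tested genes. The share of members in JEKO1 was thus near that of all tested genes.

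The roles kept their order of size only in part. With both drugs the median ratio of the nucleotide supply genes was -0.98, -0.21 and -0.54 in JEKO1, JVM2 and MAVER1. The helicase activators had -0.79, -0.20 and -0.54, and the origin licensing genes -0.72, -0.28 and -0.45. The polymerase and primase genes had -0.60, -0.14 and -0.41, the clamp group -0.68, -0.20 and -0.46, the 3 Okazaki fragment genes -0.74, -0.15 and -0.28, and the E2F factors with S-phase regulators -0.52, -0.21 and -0.18. Nucleotide supply was thus the lowest group in JEKO1, origin licensing in JVM2, and helicase activation and nucleotide supply were level in MAVER1.

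Whether the effect of ironomycin differed between lines was tested with line-specific ironomycin terms over all 12 libraries. The treatments with and without ibrutinib both enter, and within a line they stood in for replicates of the ironomycin effect. The p-values and standard errors of this fit therefore do not measure the spread between cultures of a line. The effect differed for 10 of 48 members (edgeR, adjusted p-value under 0.05), as did that of 9.38% of all tested genes. They were RRM2B, CDC6, PCNA, DUT, E2F8, TK1, GINS2, CDT1, POLD2 and MCM6. With JEKO1, JVM2 or MAVER1 left out the count was 4, 6 and 1, against 10.6%, 3.58% and 1.38% of the genes tested in these fits. The share of members was thus below that of all genes without JEKO1, near it without MAVER1 and above it without JVM2. For ibrutinib the same test called no member with edgeR or DESeq2 (0% of all tested genes with edgeR, 466 of them at an unadjusted p-value under 0.05).

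RRM2B had the lowest p-value of the list (adjusted p = 0.00768 in edgeR), with ironomycin effects of -0.26, 0.51 and 0.09 in JEKO1, JVM2 and MAVER1 on the log2 scale (standard error 0.08 in each). JVM2 was the line with the largest positive effect, and the order of the lines was JVM2, MAVER1 and JEKO1.

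CDC6, a loader of the helicase, had another pattern (adjusted p = 0.00939 in edgeR). It had 80.9, 66.7 and 136 CPM in Ctrl, 76.1, 50.9 and 165 CPM in Irono, 83.7, 72.0 and 140.3 CPM in Ibru, and 66.8, 49.9 and 154 CPM in Irono+Ibru. MAVER1 was higher with ironomycin, JVM2 lower and JEKO1 a little lower, with effects of 0.21, -0.46 and -0.21 (standard errors 0.07 to 0.08).

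PCNA (adjusted p = 0.0186 in edgeR) had 509.9, 412 and 366 CPM in Ctrl, 359, 421 and 350.4 CPM in Irono, 557, 439.5 and 389 CPM in Ibru, and 244, 410.2 and 278 CPM in Irono+Ibru. The effect of ironomycin was -0.84, -0.03 and -0.27 in JEKO1, JVM2 and MAVER1 (standard error 0.11 in each). The level in JVM2 stayed within 410.2 to 439.5 CPM over the 4 treatments, while in JEKO1 it was lower in both treatments with ironomycin.

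E2F8 (adjusted p = 0.0224 in edgeR) had 38.2, 41.0 and 43.7 CPM in Ctrl, 24.7, 32.6 and 48.7 CPM in Irono, 42.1, 42.7 and 48.3 CPM in Ibru, and 20.4, 33.3 and 37.4 CPM in Irono+Ibru. Its effects were -0.83, -0.34 and -0.10 (standard error 0.10 in each). JEKO1 was the lowest with ironomycin, and MAVER1 was lower only when ibrutinib was added. DUT (adjusted p = 0.0194 in edgeR) had effects of -0.92, -0.27 and -0.46 and TK1 (adjusted p = 0.0274) of -1.01, -0.24 and -0.68, with JEKO1 lowest and JVM2 nearest to 0 in both.

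**Figure D4:**
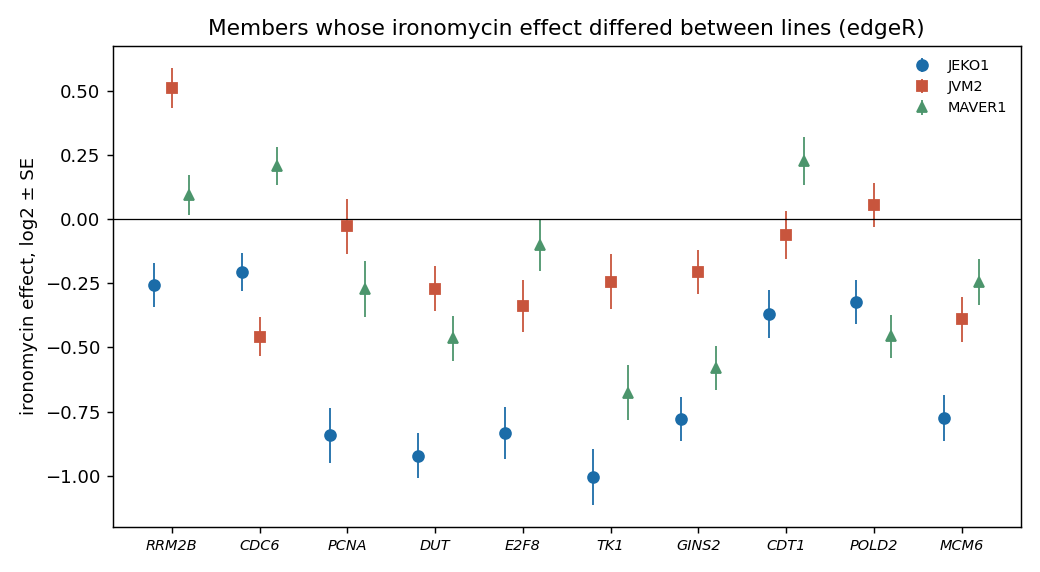
Effect of ironomycin on the log2 scale with its standard error (y axis), averaged over libraries with and without ibrutinib, in each cell line for the 10 members whose effect differed between lines in edgeR. RRM2B is at 0.51 in JVM2 and -0.26 in JEKO1, and PCNA is at -0.84 in JEKO1 and -0.03 in JVM2.

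In control cells the members were expressed at very different levels. Per kilobase of exon the mean of the 3 Ctrl libraries ran from 404 CPM for MCM7 and 292 CPM for PCNA, down to 6.55 CPM for RRM2B and 5.75 CPM for POLE2. MCM7, PCNA, MCM3, MCM2 and TK1 were the 5 highest by this mean, but the order differed between lines. In JVM2, PCNA (280.0 CPM per kilobase) and MCM2 (208 CPM) stood above MCM7 (165 CPM), and RRM2 (152 CPM) above MCM3 (150.5 CPM) and TK1 (132 CPM).

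Genes of the same pathways outside the list of 49 were counted in the same fit. With both drugs, 14.0% of all tested genes fell and 14.2% rose, with a median log2 fold change of 0.05. Of 35 other replication fork and origin genes 15 fell and none rose in edgeR, with a median of -0.27. TIPIN (-0.74), POLE4 (-0.71) and ASF1B (-0.70) led the falls. TIPIN is a part of the fork protection complex, POLE4 a small subunit of polymerase ε and ASF1B a histone chaperone. Of 29 other nucleotide synthesis genes 20 fell and 1 rose, with a median of -0.42. The share that rose (3.45%) was below that of all tested genes. DCTPP1 (-0.90), which clears dCTP, and SAMHD1 (-0.75), which degrades dNTPs, fell, and the mitochondrial thymidine kinase TK2 rose by 0.78 (standard error 0.23, adjusted p = 0.0304 in edgeR). TK2 had 1.61, 11.2 and 1.66 CPM in Ctrl and 4.52, 11.5 and 3.14 CPM in Irono+Ibru, so JVM2 was nearly level and the other 2 lines, with few reads, were higher.

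Among 17 regulators of the passage from G1 to S, 7 fell and 2 rose with both drugs, against 14.0% and 14.2% of all tested genes, so that the share that rose was near the background. The cyclin CCNA2 (-0.82) and the E2F partner TFDP1 (-0.78) fell most. CDKN1A, which encodes the CDK inhibitor p21, rose by 0.63 (standard error 0.19, adjusted p = 0.0317 in edgeR) and RBL2, a member of the retinoblastoma family, by 0.36. CDKN1A had 49.0, 526 and 79.4 CPM in Ctrl and 95.2, 535 and 141 CPM in Irono+Ibru, so that JVM2 had the highest level and the smallest ratio.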

How the data were processed

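Polyadenylated RNA of 3 MCL cell lines under 4 treatments was sequenced in paired-end mode (12 libraries, 35448523 to 38630809 counted reads). The values the authors deposited are unnormalized read counts for each Ensembl gene. The submitters' processing notes name STAR, DESeq2 and GRCh37, without versions, and the counter and its strand setting are not given in the sources used here. Of the 63677 genes, 52181 were matched to a symbol. The members and gene lists were chosen with earlier results of these data known.

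The quasi-likelihood test of edgeR 4.0.16 (R 4.3.3) was applied to all 12 libraries after TMM scaling and filterByExpr, which left 18674 genes, in a model of treatment plus cell line with 6 residual degrees of freedom. Calls were made where the p-value, adjusted by Benjamini-Hochberg over all tested genes, was under 0.05. Differences of a drug's effect between lines were tested on 2 coefficients. Log2 ratios within a line used a prior count of 2. The line is the replicate and was kept as a block: the deviation of each library from its treatment mean had a correlation of 0.926 to 0.976 within a line (18 pairs) and of -0.684 to -0.127 across lines (36 pairs). The p-values of the treatment comparisons set a change against the variation from line to line, after the level of each line was removed. This variation was pooled over all 4 treatments and is not that of the compared change alone. For the tests between lines, the spread is what remains after the line-specific terms as well. Nothing in the labels gives separate cultures. DESeq2 1.42.0, other scalings and filters, fits on fewer libraries and leaving out each line were the alternatives. Simulated counts with changes of known size showed limited power in the setting simulated. For Irono+Ibru against Ctrl, 77 of 100 made changes of 1 in log2 units were recovered, and 20 of 100 of 0.5. For ironomycin by cell line it was 70 of 100 and 6 of 100. In each case 16 other genes were called. Most made changes of 0.5 were thus missed. Far fewer genes were changed in the simulation than were called in the data with both drugs, and genes of lower level than the members could enter. These shares are therefore not the power for the members. A member that was not called may still have changed.

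Named in every library were the ribonucleotide reductase genes, the 5 lowest and 3 highest members with both drugs against Ctrl and the 5 members with the lowest p-value among those whose ironomycin effect differed between lines. Of the other pathway lists (other replication fork and origin genes, other nucleotide synthesis genes, G1/S regulators and mitotic genes), the 3 called genes with the largest change were named. MCM5, RBL2 and COL1A1 were named after their values were seen. Some marker genes and 1 further gene list are not reported here. Exon lengths came from GENCODE and were used only for levels per kilobase. Promoter windows came from RefSeq on GRCh38.p14, a build other than that of the counts. Python 3.11.15, pandas 2.3.3 and matplotlib 3.10.9 served for tables and plots.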

Additional observations from a re-analysis of the deposited data

Results flagged for a closer look

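The effect of ironomycin differed between the 3 cell lines for 10 of the 48 members, against 9.38% of all tested genes. Without JEKO1 or without MAVER1 the share of members was no longer clearly above that of all genes. This was a test of the difference itself (edgeR's quasi-likelihood test on line-specific ironomycin terms). In it, a line's libraries with and without ibrutinib stood in for replicates, and no replicate culture of a line entered. The adjusted p-value was 0.00768 for RRM2B, 0.00939 for CDC6, 0.0186 for PCNA, 0.0194 for DUT and 0.0224 for E2F8. It was 0.0274 for TK1, 0.0319 for GINS2, 0.0410 for CDT1, 0.0441 for POLD2 and 0.0459 for MCM6. RRM2B, CDC6, CDT1 and POLD2 had effects of both signs among the lines, with CDT1 at -0.37 in JEKO1, -0.06 in JVM2 and 0.23 in MAVER1 and POLD2 at -0.32, 0.05 and -0.46. The other 6 had effects below 0 in all 3 lines, with JEKO1 the lowest, and GINS2 stood at -0.78, -0.21 and -0.58 and MCM6 at -0.77, -0.39 and -0.24. The dose of ironomycin differed between JEKO1 and the other lines and cannot be told apart from the line. With 3 lines and 1 library per arm, no group was large enough for a search for outlying libraries.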

How the results depend on the processing

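The number of members called with ironomycin was 1 without a filter on low counts, 1 among genes whose mean reached 1 log2 CPM and 16 in DESeq2, and ran from 0 to 8 with each line left out. With both drugs it was 0 under a fold change of at least 2 against Ctrl and 0 against Ibru, and it was 0 with only the libraries compared in both comparisons. With each line left out it ran from 0 to 35 against Ctrl and from 0 to 39 against Ibru, and from 1 to 6 for ironomycin by line. Without the cell line as a block (no paired libraries), no member was called with both drugs against Ctrl (0) or Ibru (0), and the medians were -0.46 and -0.53. With library totals, the members 1.5-fold lower were 2 in JEKO1 and 0 in MAVER1 with ironomycin, and 19 and 8 with both drugs, the ibrutinib median in MAVER1 was 0.061, and with DESeq2's size factors 1 member was 1.5-fold lower in JVM2 with both drugs. The cause was not tested for these changes, apart from the fewer libraries that leaving out a line or a group implies.

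Single genes turned sign. With library totals, CDC6 with ironomycin was 0.0063 and POLE 0.030, and with both drugs POLE was 0.11, ORC6 0.052 and CDT1 0.019. POLE with both drugs was 0.015 among genes whose mean reached 1 log2 CPM. Without the block, CDC6 with ironomycin was 0.043 and CDT1 -0.016. With each line left out, RRM2B ran from -0.092 to 0.35 with ironomycin and from -0.093 to 0.32 with both drugs, CDC6 with ironomycin from -0.24 to 0.070, CDT1 from -0.14 to 0.14 with ironomycin and from -0.20 to 0.055 with both drugs, POLE with both drugs from -0.12 to 0.062 and ORC6 from -0.18 to 0.085. The median of the 48 members kept its sign in all 6 comparisons over the 3 lines under the alternatives run. Of the values of single genes recomputed, 265 kept their direction and side of the threshold, 43 no longer passed, 17 newly passed and 15 changed sign. A fold change minimum could not be applied to the tests between lines, which have 2 coefficients. The lowest count of a member was 399 reads, so precision was limited more by the 3 lines, with 1 library per arm, than by depth.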

Other observations

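Genes of mitosis were counted in the same fit. With both drugs 15 of 20 fell and none rose in edgeR (14.0% of all tested genes fell and 14.2% rose), with a median log2 fold change of -0.53 against 0.05 for all tested genes. The mitotic kinase gene PLK1 (-1.15), the cyclin gene CCNB1 (-1.03) and CDC20 (-0.99), an activator of the anaphase-promoting complex, had the largest changes. The median log2 ratio to Ctrl was -0.77, -0.31 and -0.62 in JEKO1, JVM2 and MAVER1. With ironomycin alone CDC20 fell by 0.64 (standard error 0.11, adjusted p = 0.0394 in edgeR), and the other 19 did not pass.

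Outside the list of S-phase genes, the effect of ironomycin differed between lines in edgeR for 4 of 17 G1/S regulators, 3 of 20 mitotic genes, 3 of 29 other nucleotide synthesis genes and 3 of 35 other replication fork and origin genes, against 9.38% of all tested genes. The last 2 lists were near that share. POLD4, the smallest subunit of polymerase δ, had the lowest adjusted p-value of the replication fork list (0.00232 in edgeR) and was singled out after its value was seen.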
